A study of Homo sapiens with 20 samples.

Results

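Expression of 9 genes whose products write, maintain, remove or read methyl groups on cytosine was followed in SUM159PT cells, a triple-negative breast cancer line. The genes were DNMT1, UHRF1, DNMT3A, DNMT3B, TET1, TET2, TET3, TDG and MBD2, and they were taken by official human symbol from a table of read counts for 27864 Entrez genes. All 9 were in the table and all 9 passed the filter on low counts, which left 16323 genes for testing. The study asked what tumorsphere growth and the loss of NNMT do to the mRNA of these cells. NNMT spends S-adenosylmethionine, the same methyl donor, on nicotinamide. Stranded poly(A) libraries from 20 samples formed 7 groups. The KOd cells were a pool in which a pair of guide RNAs deletes NNMT exon 1. The KOs cells were a pool edited with a single guide RNA at the NNMT start site. Each pool was mixed from several clones, so its libraries share those clones, and wt cells were the unedited line. Tumorspheres (3D) of KOd, KOs and wt cells (n = 3 libraries each) were grown on ultra-low attachment plates in DMEM:F12 with B27, 20 ng/mL EGF and 20 ng/mL basic FGF. They passed through a first round of 6 days and, after dissociation, another 6 days. Adherent cells (2D) of KOd, KOs and wt (n = 3 each) grew in Ham's F12 with 5% serum, 5 µg/ml insulin and 1 µg/ml hydrocortisone and were collected at 80% confluency. A further group of adherent wt cells (n = 2) grew in that standard medium to 50% confluency and then in the tumorsphere medium to 80%. Both media held penicillin and streptomycin. Tumorsphere RNA was prepared with another kit than adherent RNA, so culture and kit cannot be told apart.

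DNA methyltransferases use S-adenosylmethionine to place a methyl group on cytosine, mostly where a guanine follows (CpG). DNMT1 copies the pattern onto the new strand after replication, guided by UHRF1, while DNMT3A and DNMT3B set marks on unmethylated DNA. TET1, TET2 and TET3 oxidise 5-methylcytosine in steps, TDG excises the last oxidised forms for base excision repair, and MBD2 binds methylated CpG and recruits the NuRD complex.

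Read totals lay between 37316513 and 43744817 for the 6 libraries labelled KOs and between 26396964 and 32016875 for the other 14. Ribosomal RNA took 0.926% to 2.70% of the reads of the KOs set and 2.82% to 8.46% elsewhere, so the pool and a difference between the library sets cannot be told apart. NNMT, the targeted gene, averaged 5.15 ± 0.497 CPM (reads scaled by TMM to a common library size, mean ± SD) in KOd tumorspheres, 84.8 ± 1.75 in those labelled KOs and 98.4 ± 27.5 in wt tumorspheres. In 2D it averaged 4.55 ± 0.139 CPM in KOd, 106 ± 27.6 in the libraries labelled KOs and 117 ± 13.3 in wt cells. Adherent wt cells in tumorsphere medium (n = 2) had the highest NNMT mean, 236 ± 14.6 CPM. That was a log2 fold change (± SE) of 1.01 ± 0.19 (adjusted p = 5.2e-04) against wt 2D. Against wt, NNMT fell in KOd, with log2 fold changes of -4.26 ± 0.20 (adjusted p = 7.1e-11) in 3D and -4.68 ± 0.21 (adjusted p = 3.7e-11) in 2D. In the libraries labelled KOs the log2 fold change was -0.21 ± 0.17 (adjusted p = 0.30) in 3D and -0.14 ± 0.17 (adjusted p = 0.52) in 2D, so the mRNA does not check that label. Adjusted p-values are from edgeR's quasi-likelihood test with Benjamini-Hochberg adjustment over all tested genes, and a gene passed where it was under 0.05. One library stood apart from its replicates in each of 3 groups: replicate A of 2D labelled KOs, replicate C of wt 3D and replicate C of KOd 3D. Their mean correlation of log2 CPM with the rest of their group was 0.978, 0.984 and 0.991, the lowest of each group. No cut-off was set for this choice. Replicate C of wt 2D was also the lowest of its group, at 0.996, and was not among them. Markers listed for this breast line (VIM, CD44, AXL, CAV1, EGFR, KRT18, KRT8) summed to 4322 to 8692 CPM per library. The 5 fibroblast-associated markers (PDGFRA, PDGFRB, DCN, LUM, FAP) summed to 336 to 412 CPM in KOd tumorspheres, 494 to 515 in those labelled KOs and 1307 to 1665 in wt tumorspheres. In adherent cells they summed to 79.8 to 80.9 CPM in KOd, 98.9 to 231 in labelled KOs, 413 to 434 in tumorsphere medium and 94.8 to 115 in wt 2D. The part of what these markers stand for in the results was not tested. Luminal markers summed to 155 to 435 CPM, leukocyte markers to 17.8 to 194, most of it CD68, and endothelial markers to 7.28 to 97.9, most of it PECAM1. Whether replicates came from separate cultures is not in the labels, so the tests weigh differences against a spread that may be technical.

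**Figure D1:**
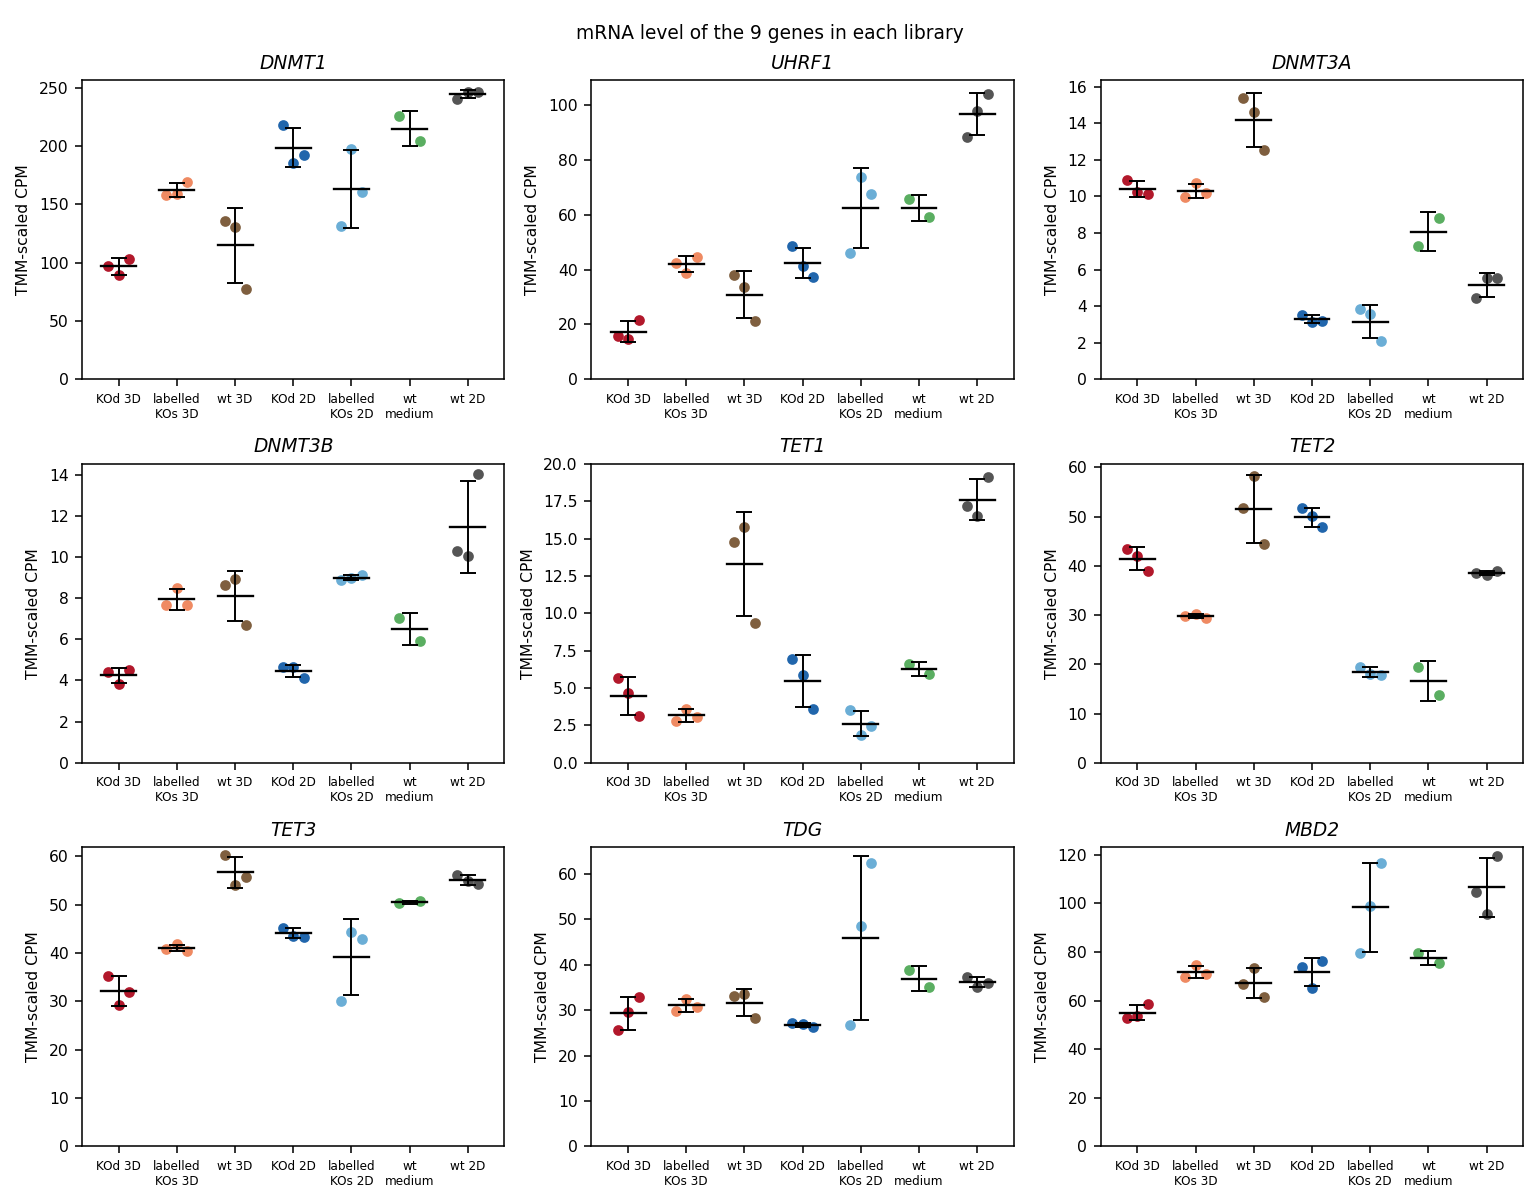
TMM-scaled CPM (y axis, linear from 0) of the 9 genes in each library, 1 panel per gene and 1 point per library, with the group mean as a line and the SD as a bar. DNMT1 and UHRF1 are highest in wt 2D (244 and 96.7 CPM), DNMT3A is highest in wt 3D (14.2 CPM), and TET1 averages 13.3 CPM in wt 3D and 17.6 in wt 2D, above every edited group.

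The promoters of the maintenance pair are shown because these genes are known to be transcribed mainly in dividing cells, and those of DNMT3A and TET1 are set beside them. Each run covers 220 bases before the start site and the first 30 after it, read 5′ to 3′ on the gene's strand from RefSeq on GRCh38.p14. Capitals mark, where there is one, a match to the E2F letters TTTCCCGC, TTTGGCGC or TTTCGCGC on either strand. The windows are chr19:10194924-10195173 on the minus strand for DNMT1 and chr19:4909281-4909530 and chr19:4909924-4910173 on the plus strand for 2 start sites of UHRF1. Those set beside them are chr2:25342561-25342810 on the minus strand for DNMT3A and chr10:68560117-68560366 on the plus strand for TET1.
DNMT1: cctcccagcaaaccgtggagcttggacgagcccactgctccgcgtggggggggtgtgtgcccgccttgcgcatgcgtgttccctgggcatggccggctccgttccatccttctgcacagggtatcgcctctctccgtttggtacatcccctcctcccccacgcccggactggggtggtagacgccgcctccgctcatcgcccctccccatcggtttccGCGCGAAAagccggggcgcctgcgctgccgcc
UHRF1 first start site: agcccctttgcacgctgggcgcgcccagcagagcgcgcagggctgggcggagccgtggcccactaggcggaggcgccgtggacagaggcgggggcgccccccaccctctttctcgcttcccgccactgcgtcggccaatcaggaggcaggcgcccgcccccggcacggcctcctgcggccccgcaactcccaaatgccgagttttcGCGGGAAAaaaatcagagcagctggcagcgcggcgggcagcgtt
UHRF1 second start site: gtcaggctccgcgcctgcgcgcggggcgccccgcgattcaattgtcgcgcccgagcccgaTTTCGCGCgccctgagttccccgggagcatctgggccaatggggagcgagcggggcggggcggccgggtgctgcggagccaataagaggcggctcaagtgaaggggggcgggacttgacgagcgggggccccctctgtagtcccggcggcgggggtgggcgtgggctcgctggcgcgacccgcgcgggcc
DNMT3A: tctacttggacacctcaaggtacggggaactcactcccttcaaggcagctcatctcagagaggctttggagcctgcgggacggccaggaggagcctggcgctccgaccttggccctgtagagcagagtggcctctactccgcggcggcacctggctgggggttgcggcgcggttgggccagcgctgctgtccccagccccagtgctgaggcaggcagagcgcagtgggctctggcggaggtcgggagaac
TET1: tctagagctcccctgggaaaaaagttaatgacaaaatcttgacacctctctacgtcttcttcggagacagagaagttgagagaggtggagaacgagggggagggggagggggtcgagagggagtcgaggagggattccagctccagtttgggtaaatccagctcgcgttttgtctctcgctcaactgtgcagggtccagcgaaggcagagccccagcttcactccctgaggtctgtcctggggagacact

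In DNMT1 the match GCGCGAAA began 2 bases upstream of the start site. In UHRF1 the match GCGGGAAA began 14 bases upstream of the first start site, and TTTCGCGC began 160 bases upstream of the second. Across the whole 300-base windows, the E2F letters were in 3 of the 20 windows of the 9 genes and in 2.74% of all 35116 windows in the table. None of the 3 matches overlapped the other letters searched on both strands, TTTGAA (the CHR element, in 15.2% of all windows), CCAAT (34.6%) and the Sp1 letters GGGCGG (45.0%). CpG dinucleotides numbered 30 in the DNMT1 window and 36 and 40 in the 2 UHRF1 windows shown. They numbered 18 in the DNMT3A window shown and 10 in that of TET1, against a median of 14 over all windows. UHRF1 and TET1 have 3 windows each and DNMT3A has 6, so these counts depend on the windows shown. The UHRF1 window not shown had 46 CpG and no E2F match. Over all their windows DNMT3A had 18 to 46 CpG and TET1 had 6 to 11. E2F factors are known to activate genes of S phase, and a match to letters is a description of the sequence and not a binding site.

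DNMT1 (Entrez 1786; hg38 chromosome 19, 10133346 to 10194953), the maintenance methyltransferase, had 2220 to 7359 reads per library. In tumorspheres DNMT1 was measured at 97.2, 89.4 and 103 CPM in the KOd libraries, 158, 159 and 169 in those labelled KOs and 136, 131 and 77.4 in wt. Adherent cells had DNMT1 at 218, 186 and 192 CPM in KOd, 131, 198 and 160.4 in labelled KOs, 226 and 204 in tumorsphere medium and 241, 246 and 246 in wt 2D. The wt 2D libraries were above every other library of the series, and KOd 3D and replicate C of wt 3D were the lowest. DNMT1 fell in KOd tumorspheres to 0.487 times the KOd 2D level, a log2 fold change (± SE) of -1.04 ± 0.16 (adjusted p = 2.5e-05). In wt tumorspheres it fell to 0.469 times the wt 2D level, a log2 fold change of -1.09 ± 0.16 (adjusted p = 1.7e-05). For labelled KOs, 3D and 2D libraries overlapped and the log2 fold change was -0.01 ± 0.16 (adjusted p = 0.96), with a 95% interval of -0.36 to 0.34. In bulk RNA, fewer cells that make a transcript and less transcript per cell cannot be told apart.

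KOd tumorspheres overlapped wt tumorspheres in DNMT1, with a log2 fold change of -0.25 ± 0.16 (adjusted p = 0.26). Without wt 3D replicate C, DNMT1 was lower in KOd (-0.46, adjusted p = 0.0091). Tumorspheres labelled KOs were above wt tumorspheres, with a log2 fold change of 0.50 ± 0.16 (adjusted p = 0.015). That call was lost without wt 3D replicate C (0.26, adjusted p = 0.089) and with the compared groups alone (0.47, adjusted p = 0.070). In 2D, DNMT1 was lower than in wt in labelled KOs, replicate A lowest, with a log2 fold change of -0.58 ± 0.16 (adjusted p = 0.0058). KOd 2D lay below wt 2D without overlap, at a log2 fold change of -0.30 ± 0.16 (adjusted p = 0.15) that passed with the compared groups alone (-0.30, adjusted p = 0.0025). Between the pools, KOd tumorspheres were below those labelled KOs, with a log2 fold change of -0.74 ± 0.16 (adjusted p = 0.0012). In 2D the pools gave a log2 fold change of 0.28 ± 0.16 (adjusted p = 0.14), KOd over labelled KOs. This one passed without replicate B of labelled KOs (0.45, adjusted p = 0.033) and under library totals alone (0.45, adjusted p = 0.035). In wt cells the DNMT1 log2 fold change was -0.19 ± 0.18 (adjusted p = 0.48) for tumorsphere against standard medium and -0.91 ± 0.18 (adjusted p = 2.9e-04) for tumorspheres against adherent cells in the same medium.

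UHRF1 (Entrez 29128; chromosome 19, 4903080 to 4962154) binds hemimethylated CpG at the replication fork and brings DNMT1 to it. It had 465 to 2746 reads per library. In tumorspheres UHRF1 was measured at 15.7, 14.9 and 21.6 CPM in the KOd libraries, 42.6, 38.8 and 44.5 in those labelled KOs and 37.9, 33.5 and 21.2 in wt. Adherent cells had UHRF1 at 48.4, 41.3 and 37.5 CPM in KOd, 46.0, 73.7 and 67.4 in labelled KOs, 65.8 and 59.1 in tumorsphere medium and 88.5, 97.7 and 104 in wt 2D. The wt 2D libraries were again the highest of all and overlapped no other group, and KOd 3D held the 2 lowest libraries. UHRF1 fell in tumorspheres of all 3 genotypes, with a log2 fold change of -1.29 ± 0.20 (adjusted p = 2.0e-05) in KOd and -1.65 ± 0.20 (adjusted p = 1.2e-06) in wt. In labelled KOs it was a log2 fold change of -0.57 ± 0.19 (adjusted p = 0.015). In labelled KOs the call was lost without 2D replicate B (-0.43, adjusted p = 0.080), without 3D replicate B (-0.52, adjusted p = 0.055) and under library totals alone (-0.35, adjusted p = 0.13).

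Against wt in 2D, UHRF1 was lower in KOd, with a log2 fold change of -1.19 ± 0.19 (adjusted p = 8.0e-05), and in labelled KOs, with -0.63 ± 0.19 (adjusted p = 0.0099). Against wt in 3D it was lower in KOd, with a log2 fold change of -0.83 ± 0.20 (adjusted p = 0.0033), although KOd replicate C lay just above wt replicate C. Tumorspheres labelled KOs were above all wt tumorspheres, with a log2 fold change of 0.44 ± 0.19 (adjusted p = 0.059) that did not pass. It did pass without wt 3D replicate A (0.62, adjusted p = 0.020), leaving out the 3 libraries that stand apart (0.24, adjusted p = 0.040) and under library totals alone (0.59, adjusted p = 0.016). KOd was below labelled KOs in 3D, with a log2 fold change of -1.27 ± 0.20 (adjusted p = 4.9e-05), and in 2D, with -0.56 ± 0.19 (adjusted p = 0.019). In 2D the pools overlapped, with KOd replicate A (48.4 CPM) above replicate A of labelled KOs (46.0 CPM). The 2D call was lost when replicate B or C of either pool was left out (adjusted p = 0.054 to 0.097) and under library totals alone (-0.38, adjusted p = 0.11). In adherent wt cells UHRF1 was lower in tumorsphere than in standard medium, with a log2 fold change of -0.63 ± 0.22 (adjusted p = 0.034). Leaving out either medium library or wt 2D replicate B or C took that call away (adjusted p = 0.066 to 0.20). The wt tumorspheres were below adherent cells in tumorsphere medium, with a log2 fold change of -1.02 ± 0.21 (adjusted p = 4.9e-04).

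Per kilobase of gene length, the UHRF1 level divided by the DNMT1 level averaged 0.188 ± 0.0278 in KOd 3D, 0.273 ± 0.0142 in 3D labelled KOs and 0.284 ± 0.0124 in wt 3D. In adherent cells this ratio was 0.224 ± 0.0170 in KOd, 0.401 ± 0.0373 in labelled KOs, 0.305 ± 0.00168 in tumorsphere medium and 0.416 ± 0.0288 in wt 2D. Tumorspheres had the lower ratio without overlap in wt and labelled KOs, while in KOd replicate C of 3D overlapped the 2D libraries.

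Both genes are transcribed mainly in dividing cells, so 24 genes of DNA replication and S phase were counted beside them. Their summed level was 1055, 1067 and 1149 CPM in KOd 3D, 2111, 2154 and 2126 in 3D labelled KOs and 1324, 1301 and 822 in wt 3D, in the order of replicates A, B and C. In adherent cells it was 2699.9, 2332 and 2270.5 CPM in KOd, 2631, 3907 and 3832 in the libraries labelled KOs, 3261 and 3059 in tumorsphere medium and 3578, 3452 and 3790.1 in wt 2D. KOd 3D and wt 3D had the lowest sums and the lowest mean levels of DNMT1 and UHRF1. Within wt 3D and 2D labelled KOs the library that stood apart had the lowest of all 3 values. Of the 24 genes, 24 were lower in wt 3D than in wt 2D (median log2 fold change -1.66, against 0.04 over all tested genes). Against their adherent cells, 18 were lower in 3D labelled KOs (-0.69), and 21 were lower and 2 higher in KOd 3D (-1.22). Of all tested genes 31.2% were lower in KOd, 32.1% in labelled KOs and 30.4% in wt. Against wt in 3D, 22 were higher and 1 lower in the libraries labelled KOs (median 0.98), where 27.8% of all genes were higher. For KOd against wt in 3D none passed in edgeR (median -0.05), DESeq2 or limma-voom. At an unadjusted p under 0.05 there were 4, 4 and 2 by these tools, and 14 were lower in edgeR leaving out the 3 libraries that stand apart (median -0.28), where 23.4% of all genes were lower. In 2D, 14 were lower and 2 higher in KOd than in wt (median -0.54), beside 22.5% lower over all genes. In 2D labelled KOs 5 were lower (median -0.02), near the 25.5% of all genes, while DNMT1 and UHRF1 were both lower. Without the libraries that stand apart 10 were higher and 7 lower, beside 31.8% and 31.9% of all genes. Of 10 mitosis genes, 10, 8 and 10 were lower in tumorspheres of KOd, labelled KOs and wt than in their adherent cells, and 1 was higher in labelled KOs. In KOd 3D 6 of the 10 were lower than in wt 3D (median -0.46), where 17.5% of all genes were lower. In 2D labelled KOs 4 of the 10 were lower than in wt 2D and 1 was higher (median -0.16), beside 25.5% and 27.7% of all genes. The 10 mitosis genes summed to 2268, 2737 and 2713 CPM there, against 3354, 3221 and 3432 in wt 2D. The part of the share of dividing cells in the DNMT1 and UHRF1 differences was not tested.

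**Figure D2:**
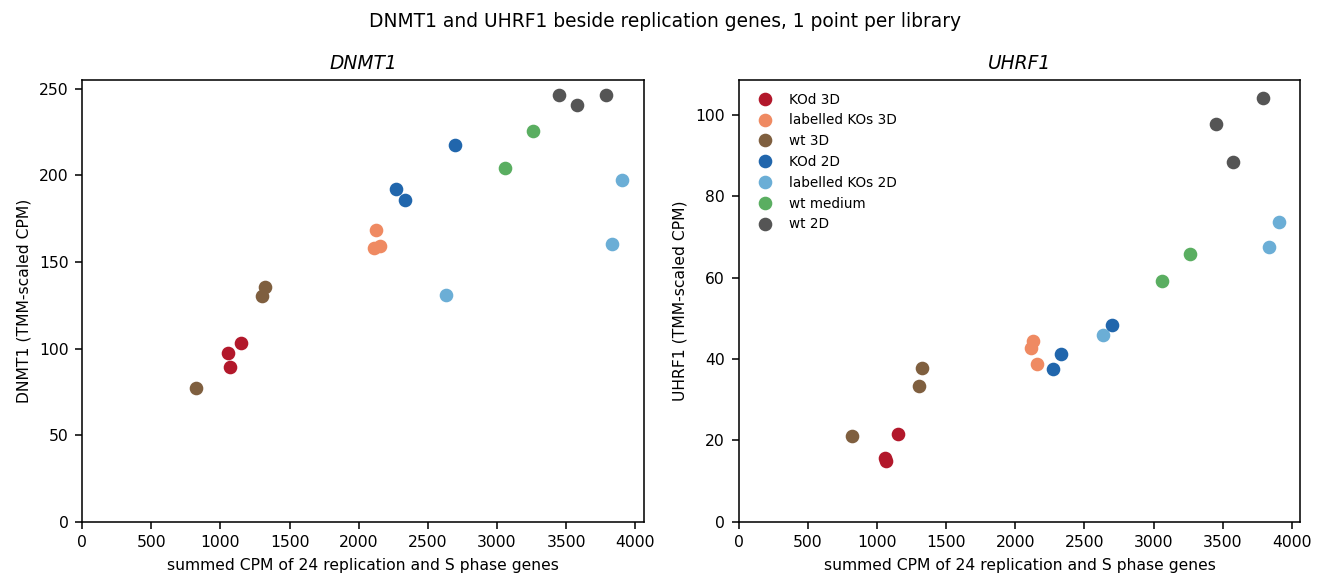
Each point is 1 library, with the summed CPM of 24 replication and S phase genes on the x axis and the CPM of DNMT1 (left) or UHRF1 (right) on the y axis, all linear and coloured by group. KOd 3D and wt 3D lie at the low end of both axes (sums up to 1324 CPM), and the 3 libraries of 2D labelled KOs have sums up to 3907 CPM with less DNMT1 and UHRF1 than wt 2D.

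DNMT3A (Entrez 1788; chromosome 2, 25227874 to 25342590), a de novo methyltransferase, had 74 to 477 reads per library. In tumorspheres DNMT3A was measured at 10.9, 10.2 and 10.1 CPM in the KOd libraries, 9.95, 10.7 and 10.2 in those labelled KOs and 15.4, 14.6 and 12.5 in wt. Adherent cells had DNMT3A at 3.53, 3.11 and 3.21 CPM in KOd, 3.82, 3.54 and 2.10 in labelled KOs, 7.31 and 8.84 in tumorsphere medium and 4.43, 5.51 and 5.53 in wt 2D. Every tumorsphere library was above every adherent library, and the 2 libraries in tumorsphere medium were the highest of the adherent ones. DNMT3A rose in KOd tumorspheres to 3.17 times the adherent level, a log2 fold change of 1.67 ± 0.18 (adjusted p = 2.2e-07). It rose 3.25 times in labelled KOs, a log2 fold change of 1.70 ± 0.17 (adjusted p = 2.1e-07), and 2.75 times in wt, one of 1.46 ± 0.17 (adjusted p = 9.7e-07). Adherent wt cells had more DNMT3A in tumorsphere than in standard medium, with a log2 fold change of 0.65 ± 0.19 (adjusted p = 0.015). That call was lost without medium replicate B (adjusted p = 0.17) or wt 2D replicate A (adjusted p = 0.063). The wt tumorspheres had more again than adherent cells in that medium, with a log2 fold change of 0.81 ± 0.19 (adjusted p = 0.0012).

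Both pools had less DNMT3A than wt in 2D, with a log2 fold change of -0.65 ± 0.18 (adjusted p = 0.0063) in KOd and -0.70 ± 0.18 (adjusted p = 0.0027) in labelled KOs. With the compared groups alone the value of labelled KOs did not pass (-0.72, adjusted p = 0.062). In 3D both pools were again below wt without overlap, with a log2 fold change of -0.45 ± 0.16 (adjusted p = 0.043) in KOd and -0.46 ± 0.16 (adjusted p = 0.022) in labelled KOs. The KOd call was lost without any one of 5 libraries, wt A or B or any KOd replicate (adjusted p = 0.075 to 0.14). The call of labelled KOs was lost without any one of 4, wt A or B or replicate A or C of the pool (adjusted p = 0.058 to 0.080). Library totals alone gave -0.29, adjusted p = 0.22 for KOd and -0.31, adjusted p = 0.16 for labelled KOs in this comparison. KOd and labelled KOs overlapped, with a log2 fold change of 0.02 ± 0.16 (adjusted p = 0.94) in 3D and 0.05 ± 0.18 (adjusted p = 0.82) in 2D. The 95% intervals of these were -0.34 to 0.37 and -0.34 to 0.44.

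DNMT3B (Entrez 1789; chromosome 20, 32762385 to 32809356), the other de novo methyltransferase, had 119 to 371 reads per library. In tumorspheres DNMT3B was measured at 4.40, 3.83 and 4.52 CPM in the KOd libraries, 7.65, 8.51 and 7.64 in those labelled KOs and 8.66, 8.93 and 6.69 in wt. Adherent cells had DNMT3B at 4.63, 4.64 and 4.11 CPM in KOd, 8.86, 8.99 and 9.14 in labelled KOs, 7.05 and 5.93 in tumorsphere medium and 10.3, 10.0 and 14.0 in wt 2D. Both KOd groups lay below all other libraries, with at most 4.64 CPM. DNMT3B was at 0.525 times the wt level in KOd tumorspheres, a log2 fold change of -0.93 ± 0.15 (adjusted p = 1.1e-04). In KOd 2D it was at 0.390 times the wt level, a log2 fold change of -1.36 ± 0.15 (adjusted p = 1.2e-06). Against labelled KOs it was lower in KOd as well, with a log2 fold change of -0.90 ± 0.15 (adjusted p = 9.0e-05) in 3D and -1.01 ± 0.15 (adjusted p = 1.4e-05) in 2D. Labelled KOs overlapped wt in 3D, with a log2 fold change of -0.03 ± 0.14 (adjusted p = 0.87). In 2D labelled KOs lay below wt without overlap, with a log2 fold change of -0.35 ± 0.14 (adjusted p = 0.051) that did not pass. It passed without wt 2D replicate A (adjusted p = 0.042) or B (0.033), leaving out the 3 libraries that stand apart (0.037) and under library totals alone (0.035).

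In wt cells DNMT3B fell in tumorspheres, with a log2 fold change of -0.50 ± 0.15 (adjusted p = 0.0061). Without wt 2D replicate C, which had the most DNMT3B of all libraries, the call was lost (-0.33, adjusted p = 0.058). Tumorspheres of the pools gave a log2 fold change of -0.07 ± 0.15 (adjusted p = 0.70) in KOd and -0.18 ± 0.14 (adjusted p = 0.28) in labelled KOs against their adherent cells. Adherent wt cells had less DNMT3B in tumorsphere than in standard medium, with a log2 fold change of -0.82 ± 0.17 (adjusted p = 0.0012). Against that medium, wt tumorspheres stood at a log2 fold change of 0.32 ± 0.17 (adjusted p = 0.11), which passed without wt 3D replicate C (0.45, adjusted p = 0.024). DNMT3A had its largest log2 fold changes between tumorspheres and adherent cells, and DNMT3B between KOd and wt in 2D. Per kilobase, the DNMT3A level divided by the DNMT3B level averaged 1.87 ± 0.163 in KOd 3D, 0.989 ± 0.0284 in 3D labelled KOs and 1.34 ± 0.0903 in wt 3D. In adherent cells it averaged 0.562 ± 0.0459 in KOd, 0.268 ± 0.0816 in labelled KOs, 0.962 ± 0.244 in tumorsphere medium and 0.349 ± 0.0619 in wt 2D. Tumorspheres were above the adherent libraries of their own genotype in this ratio without overlap, those in tumorsphere medium included. The size of the ratio depends on the length used. With the longest GENCODE transcript, a choice made after seeing the data, it averaged 1.12 in KOd 3D, 0.593 in 3D labelled KOs and 0.805 in wt 3D, against 0.337, 0.161, 0.577 and 0.209 in KOd 2D, 2D labelled KOs, tumorsphere medium and wt 2D. In wt 3D it then lay below 1 rather than above it, so which of both genes is higher there is uncertain, while ratios between groups do not change with the length.

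**Figure D3:**
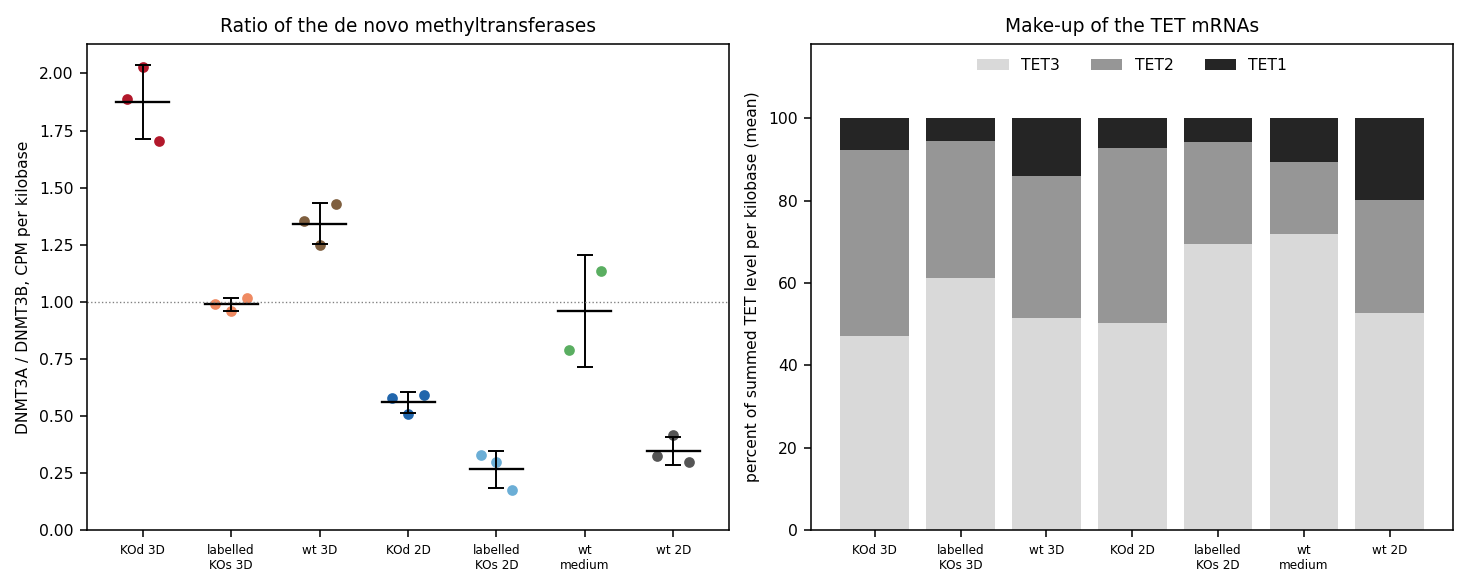
Left, the level of DNMT3A per kilobase divided by that of DNMT3B in each library (points), with the group mean (line), SD (bar) and a dotted line at equal levels by the deposited length; right, the mean percent of the summed TET level per kilobase that TET1, TET2 and TET3 hold in each group. The left panel shows tumorspheres at group means of 0.989 to 1.87 and adherent cells in standard medium at 0.268 to 0.562, and the right panel shows TET1 with 14.1% in wt 3D and 20.0% in wt 2D. With the longest GENCODE transcript the left means are 1.12 in KOd 3D and 0.805 in wt 3D, and TET2 holds more than TET3 in KOd 3D, wt 3D and KOd 2D.

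TET1 (Entrez 80312; chromosome 10, 68560337 to 68694487) is a dioxygenase with a CXXC domain that binds unmethylated CpG, and it had 70 to 488 reads per library. In tumorspheres TET1 was measured at 5.65, 4.70 and 3.12 CPM in the KOd libraries, 2.82, 3.63 and 3.08 in those labelled KOs and 14.8, 15.8 and 9.34 in wt. Adherent cells had TET1 at 6.96, 5.90 and 3.59 CPM in KOd, 3.53, 1.88 and 2.47 in labelled KOs, 6.61 and 5.93 in tumorsphere medium and 17.2, 16.5 and 19.1 in wt 2D. Every pool library was below every wt tumorsphere and every wt 2D library, and replicate C was the lowest of wt 3D. In 2D TET1 was at 0.311 times the wt level in KOd, a log2 fold change of -1.68 ± 0.26 (adjusted p = 5.2e-05), and at 0.150 times in labelled KOs, one of -2.74 ± 0.28 (adjusted p = 3.2e-07). In 3D the log2 fold change against wt was -1.56 ± 0.26 (adjusted p = 1.7e-04) in KOd and -2.07 ± 0.27 (adjusted p = 4.0e-06) in labelled KOs. These 4 calls held in all 11 alternatives and without each library in turn. TET1 was higher in KOd than in labelled KOs in 2D, with a log2 fold change of 1.06 ± 0.27 (adjusted p = 0.0029). In 3D the same comparison gave 0.50 ± 0.27 (adjusted p = 0.14) on the log2 scale, which passed without KOd replicate C (0.71, adjusted p = 0.049).

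Between tumorspheres and adherent cells TET1 did not pass, with a log2 fold change of -0.28 ± 0.27 (adjusted p = 0.36) in KOd, 0.27 ± 0.28 (adjusted p = 0.41) in labelled KOs and -0.40 ± 0.25 (adjusted p = 0.17) in wt. The value of labelled KOs passed when leaving out the 3 libraries that stand apart (0.55, adjusted p = 0.032). Adherent wt cells had less TET1 in tumorsphere than in standard medium, with a log2 fold change of -1.49 ± 0.30 (adjusted p = 0.0011). In the same medium, wt tumorspheres had more TET1 than those adherent cells, with a log2 fold change of 1.08 ± 0.30 (adjusted p = 0.0043).

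TET2 (Entrez 54790; chromosome 4, 105145875 to 105279803), the TET enzyme without a CXXC domain of its own, had 352 to 1734 reads per library. In tumorspheres TET2 was measured at 43.5, 41.9 and 38.9 CPM in the KOd libraries, 29.8, 30.2 and 29.4 in those labelled KOs and 51.8, 58.2 and 44.5 in wt. Adherent cells had TET2 at 51.6, 50.1 and 47.9 CPM in KOd, 19.5, 18.0 and 17.8 in labelled KOs, 19.5 and 13.8 in tumorsphere medium and 38.5, 38.2 and 38.8 in wt 2D. The highest values were in wt 3D and KOd 2D and the lowest in 2D labelled KOs and in tumorsphere medium, with no overlap between the high and the low groups. TET2 rose in tumorspheres of labelled KOs, with a log2 fold change of 0.69 ± 0.11 (adjusted p = 2.7e-05), and of wt, with 0.42 ± 0.11 (adjusted p = 0.0024). It fell in KOd tumorspheres, with a log2 fold change of -0.27 ± 0.11 (adjusted p = 0.036). This call was lost without KOd 2D replicate A or B or KOd 3D replicate B or C (adjusted p = 0.067 to 0.12) and under library totals alone (-0.22, adjusted p = 0.14). Labelled KOs were below wt, with a log2 fold change of -0.79 ± 0.11 (adjusted p = 6.7e-06) in 3D and -1.06 ± 0.11 (adjusted p = 4.2e-07) in 2D. KOd was above wt in 2D, with a log2 fold change of 0.37 ± 0.11 (adjusted p = 0.0087), and below wt in 3D, with -0.31 ± 0.11 (adjusted p = 0.030). The 3D call was lost without wt A or B or KOd B or C (adjusted p = 0.066 to 0.16), with the compared groups alone (0.085) and under library totals alone (0.34).

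KOd had more TET2 than labelled KOs, with a log2 fold change of 0.48 ± 0.11 (adjusted p = 0.0014) in 3D and 1.43 ± 0.11 (adjusted p = 6.3e-09) in 2D, where the level was 2.70 times as high. Adherent wt cells had less TET2 in tumorsphere than in standard medium, with a log2 fold change of -1.21 ± 0.13 (adjusted p = 1.9e-06). For TET2, wt tumorspheres had 3.08 times the level of adherent cells in the same medium, a log2 fold change of 1.62 ± 0.13 (adjusted p = 9.9e-09). Medium and tumorsphere form went with opposite differences for TET2 in wt cells, as for TET1, and both comparisons use the 2 medium libraries.

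TET3 (Entrez 200424; chromosome 2, 73983631 to 74135498), another TET dioxygenase, had 915 to 1867 reads per library, and its end overlaps BOLA3, which had 379 to 2519 reads of its own. In tumorspheres TET3 was measured at 35.4, 29.2 and 32.0 CPM in the KOd libraries, 40.9, 41.8 and 40.5 in those labelled KOs and 60.3, 54.2 and 55.7 in wt. Adherent cells had TET3 at 45.3, 43.5 and 43.4 CPM in KOd, 30.1, 44.4 and 43.0 in labelled KOs, 50.3 and 50.8 in tumorsphere medium and 56.2, 55.0 and 54.3 in wt 2D. All wt libraries were above all pool libraries in both cultures, and replicate A of 2D labelled KOs was the lowest of the adherent libraries. Against wt in 3D, the log2 fold change of TET3 was -0.82 ± 0.11 (adjusted p = 1.6e-05) in KOd and -0.47 ± 0.11 (adjusted p = 0.0015) in labelled KOs. Against wt in 2D it was a log2 fold change of -0.32 ± 0.11 (adjusted p = 0.023) in KOd and -0.49 ± 0.11 (adjusted p = 0.0010) in labelled KOs, so TET3 fell in all 4. The KOd 2D call was lost without wt A, KOd B or KOd C (adjusted p = 0.061 to 0.063) and under library totals alone (-0.21, adjusted p = 0.12). TET3 fell in KOd tumorspheres against KOd 2D, with a log2 fold change of -0.45 ± 0.11 (adjusted p = 0.0016). In labelled KOs this comparison gave 0.07 ± 0.11 (adjusted p = 0.59), with a 95% interval of -0.17 to 0.31 on the log2 scale, and it passed under library totals alone (0.29, adjusted p = 0.024). In wt it gave 0.04 ± 0.11 (adjusted p = 0.76), with a 95% interval of -0.19 to 0.28 on the log2 scale.

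KOd tumorspheres had less TET3 than those labelled KOs, with a log2 fold change of -0.35 ± 0.11 (adjusted p = 0.014), a call lost without KOd 3D replicate B (-0.28, adjusted p = 0.075). In 2D the pools overlapped at a log2 fold change of 0.17 ± 0.11 (adjusted p = 0.19), which passed under library totals alone (0.35, adjusted p = 0.011). In wt cells the TET3 log2 fold change was -0.13 ± 0.12 (adjusted p = 0.47) for tumorsphere against standard medium and 0.17 ± 0.12 (adjusted p = 0.25) for tumorspheres against that medium. The summed TET level per kilobase averaged 6.00 ± 0.463 CPM in KOd 3D, 5.88 ± 0.121 in 3D labelled KOs and 9.73 ± 0.833 in wt 3D. In adherent cells that sum was 7.70 ± 0.380 CPM in KOd, 4.92 ± 0.546 in labelled KOs, 6.18 ± 0.287 in tumorsphere medium and 9.20 ± 0.135 in wt 2D. By the deposited length TET3 held the largest mean share of the sum in every group, from 47.1% in KOd 3D to 71.9% in tumorsphere medium. In KOd 3D the shares of TET2 (45.1 ± 1.93%) and TET3 (47.1 ± 2.64%) overlapped. With the longest GENCODE transcript TET2 and TET3 held 55.2% and 38.3% in KOd 3D and 52.4% and 41.4% in KOd 2D. In wt 3D their levels were then 5.07 and 4.98 CPM per kilobase, so TET2 was the larger in these 3 groups and TET3 in the other 4. TET1 held 7.74 ± 1.77% in KOd 3D and 5.63 ± 0.627% in 3D labelled KOs, against 14.1 ± 2.66% in wt 3D. In 2D TET1 held 7.37 ± 2.01% in KOd and 5.76 ± 2.54% in labelled KOs, against 20.0 ± 1.30% in wt.

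TDG (Entrez 6996; chromosome 12, 103965872 to 103988874), the glycosylase that removes formylcytosine and carboxylcytosine, had 760 to 2200 reads per library. A pseudogene copy, TDGP1, is annotated on the same chromosome, so reads could have been split between them and TDG values are uncertain. In tumorspheres TDG was measured at 25.6, 29.5 and 32.8 CPM in the KOd libraries, 29.9, 32.5 and 30.7 in those labelled KOs and 33.1, 33.6 and 28.2 in wt. Adherent cells had TDG at 27.1, 26.9 and 26.2 CPM in KOd, 26.7, 48.4 and 62.5 in labelled KOs, 38.8 and 35.0 in tumorsphere medium and 37.3, 35.2 and 35.9 in wt 2D. The 2D libraries labelled KOs held both the highest values of the series and, in replicate A, one of the lowest. TDG fell in tumorspheres labelled KOs against their adherent cells, with a log2 fold change of -0.56 ± 0.19 (adjusted p = 0.015), but the groups overlapped. That call was lost without 2D replicate C (-0.27, adjusted p = 0.17), with the compared groups alone (adjusted p = 0.13) and under library totals alone (adjusted p = 0.12). Against wt in 2D labelled KOs gave a log2 fold change of 0.34 ± 0.19 (adjusted p = 0.14), and without their replicate A TDG was higher (0.62, adjusted p = 1.1e-04). KOd 2D was below 2D labelled KOs, with a log2 fold change of -0.78 ± 0.19 (adjusted p = 0.0020), although replicate A of labelled KOs lay among the KOd values. Against wt in 2D KOd gave a log2 fold change of -0.43 ± 0.19 (adjusted p = 0.076), which passed with the compared groups alone (adjusted p = 2.6e-04) and leaving out the 3 libraries that stand apart (adjusted p = 2.1e-04).

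The other TDG comparisons did not pass. Tumorspheres against adherent cells gave a log2 fold change of 0.13 ± 0.19 (adjusted p = 0.56) in KOd and -0.19 ± 0.19 (adjusted p = 0.40) in wt. Against wt in 3D it was -0.11 ± 0.19 (adjusted p = 0.69) in KOd and -0.03 ± 0.19 (adjusted p = 0.91) in labelled KOs on the log2 scale, and KOd against labelled KOs gave -0.08 ± 0.19 (adjusted p = 0.74). With the 3 libraries that stand apart left out, TDG was lower in KOd than in wt in 3D (-0.27, adjusted p = 0.038). The log2 fold change was 0.03 ± 0.21 (adjusted p = 0.94) for tumorsphere against standard medium and -0.22 ± 0.21 (adjusted p = 0.38) for wt tumorspheres against that medium.

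MBD2 (Entrez 8932; chromosome 18, 54151606 to 54224669), the methyl-CpG reader, had 1670 to 4102 reads per library. In tumorspheres MBD2 was measured at 52.8, 53.7 and 58.5 CPM in the KOd libraries, 69.9, 74.8 and 70.8 in those labelled KOs and 67.0, 73.6 and 61.3 in wt. Adherent cells had MBD2 at 73.7, 65.1 and 76.3 CPM in KOd, 79.6, 99.1 and 116 in labelled KOs, 79.6 and 75.7 in tumorsphere medium and 105, 95.5 and 119.7 in wt 2D. The highest libraries were in wt 2D and 2D labelled KOs and the lowest were the 3 of KOd 3D. MBD2 fell in tumorspheres without overlap, with a log2 fold change of -0.38 ± 0.12 (adjusted p = 0.0080) in KOd, -0.45 ± 0.12 (adjusted p = 0.0023) in labelled KOs and -0.66 ± 0.12 (adjusted p = 8.5e-05) in wt. In labelled KOs the call was lost under library totals alone (-0.23, adjusted p = 0.078). In 2D KOd had less MBD2 than wt, with a log2 fold change of -0.57 ± 0.12 (adjusted p = 6.1e-04), and less than labelled KOs, with -0.46 ± 0.12 (adjusted p = 0.0025). In 3D KOd was below labelled KOs, with a log2 fold change of -0.38 ± 0.12 (adjusted p = 0.012). KOd tumorspheres lay below wt tumorspheres without overlap, with a log2 fold change of -0.29 ± 0.12 (adjusted p = 0.063) that did not pass. With the replicate letter as a block in these groups the value passed (-0.28, adjusted p = 0.046). It also passed without wt 3D replicate C (-0.35, adjusted p = 0.046) and without all 3 libraries that stand apart (-0.40, adjusted p = 0.0032).

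Labelled KOs overlapped wt for MBD2, with a log2 fold change of 0.09 ± 0.12 (adjusted p = 0.51) in 3D and -0.12 ± 0.12 (adjusted p = 0.42) in 2D. Adherent wt cells had less MBD2 in tumorsphere than in standard medium, with a log2 fold change of -0.46 ± 0.13 (adjusted p = 0.013). That call was lost without wt 2D replicate C or either medium library (adjusted p = 0.057 to 0.11). The wt tumorspheres stood at a log2 fold change of -0.21 ± 0.13 (adjusted p = 0.18) against that medium.

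Across the 3 genotypes, tumorspheres had more DNMT3A and less UHRF1 and MBD2 mRNA than adherent cells, while the other 6 genes did not pass in the same direction in all 3. In wt tumorspheres 2 of the 9 genes were higher than in 2D (DNMT3A and TET2) and 4 lower (DNMT1, UHRF1, DNMT3B and MBD2). The background over all tested genes was 33.3% higher and 30.4% lower, 63.7% in either direction. In tumorspheres labelled KOs 2 were higher (DNMT3A and TET2) and 3 lower (UHRF1, TDG and MBD2). Across the deposited genes that were tested 32.9% were higher and 32.1% lower, 65.0% in all. In KOd tumorspheres 1 was higher (DNMT3A) and 5 were lower (DNMT1, UHRF1, TET2, TET3 and MBD2). Of all tested genes 35.2% were higher and 31.2% lower in that comparison, 66.4% in either direction. With so many genes changed in all, the number called among the 9 is close to the background and says nothing about these genes as a group. Scaling by library totals alone put the median log2 fold change of all tested genes at 0.24 for labelled KOs 3D against 2D, with 65.5% of calls higher in place of 50.6%. Then 3 of the 9 genes were higher (DNMT3A, TET2 and TET3), beside 41.4% of all genes, and UHRF1, TDG and MBD2 no longer passed.

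Against wt, TET1, TET3 and DNMT3A were lower in both pools in both cultures. The TET1 calls held in every alternative and without each library. Both 3D calls of DNMT3A and the KOd 2D call of TET3 were lost without some single libraries and under library totals alone. UHRF1 was lower in both pools in 2D and in KOd in 3D, and DNMT3B was lower in KOd in both cultures. In 2D, KOd had 1 gene higher (TET2) and 6 lower (UHRF1, DNMT3A, DNMT3B, TET1, TET3 and MBD2). The background over all tested genes was 22.1% higher and 22.5% lower, 44.6% in either direction. The 2D cells labelled KOs had 6 lower (DNMT1, UHRF1, DNMT3A, TET1, TET2 and TET3). Across the deposited genes that were tested 27.7% were higher and 25.5% lower, 53.2% in all. In 3D, KOd had 6 lower (UHRF1, DNMT3A, DNMT3B, TET1, TET2 and TET3). Of all tested genes 16.5% were higher and 17.5% lower in that comparison, 34.0% in either direction. Tumorspheres labelled KOs had 1 higher (DNMT1) and 4 lower (DNMT3A, TET1, TET2 and TET3). The background over all tested genes was 27.8% higher and 28.5% lower, 56.3% in either direction. Median log2 fold changes of the 9 genes were -0.57 for KOd and -0.58 for labelled KOs in 2D, and -0.45 and -0.03 in 3D, against 0.01, 0.06, 0.0026 and 0.02 over all tested genes. Library totals alone put the all-gene median at 0.12 for KOd in 2D, 0.18 for labelled KOs in 3D and 0.16 for KOd in 3D. The share of all calls that were higher was then 61.2%, 63.1% and 70.1% in place of 49.6%, 49.3% and 48.5%. In each of these 4 comparisons a larger share of the 9 genes than of all genes was lower, with the smallest gap for labelled KOs in 3D, and no test of the list was made. With the 3 libraries that stand apart left out, 9 of the 9 were lower in KOd 3D, beside 23.4% of all genes. Under library totals alone DNMT3A and TET2 no longer passed in KOd 3D (edgeR adjusted p = 0.22 and 0.34). With the compared groups alone TET2 did not pass (edgeR adjusted p = 0.085), and 1 call was lost with no filter. Leaving out single libraries took away the DNMT3A or TET2 call of that comparison in several fits, and DNMT1 and MBD2 passed without wt 3D replicate C. Comparisons of the pools with wt in 1 culture share the wt libraries.

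Between the pools, DNMT3B, UHRF1 and MBD2 were lower in KOd than in labelled KOs in both cultures, and TET2 was higher. For UHRF1 the pools overlapped in 2D, and that call was lost without some single libraries and under library totals alone. In 2D 2 of the 9 genes were higher in KOd (TET1 and TET2) and 4 lower (UHRF1, DNMT3B, TDG and MBD2). Across the deposited genes that were tested 28.8% were higher and 30.7% lower, 59.6% in all. In 3D 1 was higher (TET2) and 5 were lower (DNMT1, UHRF1, DNMT3B, TET3 and MBD2). Of all tested genes 23.9% were higher and 23.3% lower in that comparison, 47.2% in either direction. Under library totals alone 59.8% of the calls in 2D were higher, in place of 48.4%, with an all-gene median of 0.12. In wt cells the medium alone went with lower UHRF1, DNMT3B, TET1, TET2 and MBD2 and higher DNMT3A. Tumorsphere against standard medium gave 1 gene higher and 5 lower. The background over all tested genes was 15.6% higher and 16.4% lower, 32.0% in either direction. Tumorspheres against adherent cells in the same medium gave 3 higher (DNMT3A, TET1 and TET2) and 2 lower (DNMT1 and UHRF1). Across the deposited genes that were tested 32.8% were higher and 30.0% lower, 62.8% in all.

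Whether tumorsphere culture moved a gene differently in a pool than in wt was tested as an interaction, the 3D against 2D difference of the pool minus that of wt. For labelled KOs it was higher than 0 for DNMT1, at 1.08 ± 0.23 (adjusted p = 0.0014), and for UHRF1, at 1.08 ± 0.27 (adjusted p = 0.0050) on the log2 scale, and these were the 2 of the 9 genes that passed. Of all tested genes 17.9% were higher and 19.0% lower in that comparison, 36.8% in either direction. Library totals alone gave an all-gene median of 0.18 and 69.5% of calls higher in place of 48.5%, and then 4 of the 9 were higher, with TET2 and MBD2 added, beside 26.5% of all genes. Without 2D labelled KOs replicate A the interaction passed for TET1, 0.95 (adjusted p = 0.046), and for TDG, -0.65 (adjusted p = 0.0021). For KOd it was below 0 for TET2, at -0.69 ± 0.15 (adjusted p = 0.0024), and for TET3, at -0.49 ± 0.16 (adjusted p = 0.024) on the log2 scale, and these were the 2 that passed. The background over all tested genes was 14.4% higher and 14.7% lower, 29.1% in either direction. The TET3 call was lost without wt 3D replicate A (adjusted p = 0.057) or KOd 3D replicate B (adjusted p = 0.065). In the same test 22 of the 24 replication genes were higher for labelled KOs (median 0.97), beside 17.9% of all genes. For KOd 9 were higher and 1 lower (median 0.49), beside 14.4% and 14.7%, and their part in the DNMT1 and UHRF1 values was not tested.

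**Figure D4:**
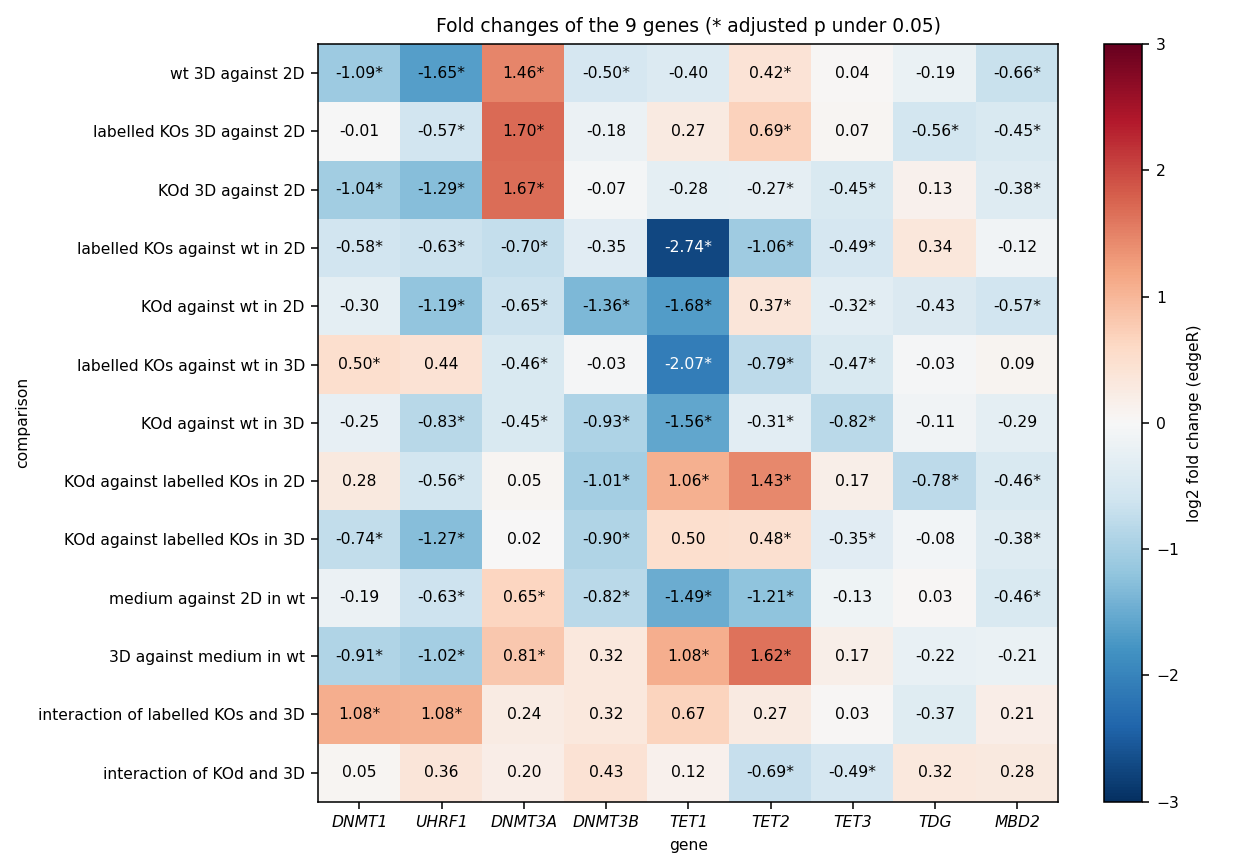
Log2 fold changes from edgeR (number and colour, red higher and blue lower in the first-named group) of the 9 genes (columns) in 13 comparisons (rows), with a star where the adjusted p was under 0.05. The TET1 column is lowest in the comparisons of the pools with wt (down to -2.74), and the DNMT3A column is highest in the comparisons of 3D with 2D (up to 1.70).

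Divided by the deposited gene length, DNMT1 had the highest level of the 9 genes and MBD2 the next in each of the 7 groups. The place of DNMT1 was the same with the longest GENCODE transcript, and that of MBD2 in all groups but wt 2D. In KOd 3D DNMT1 stood at 17.7 ± 1.27 CPM per kilobase, followed by MBD2 (9.80 ± 0.542), TDG (9.03 ± 1.10), UHRF1 (3.34 ± 0.709), TET3 (2.83 ± 0.269), TET2 (2.70 ± 0.151), DNMT3A (1.71 ± 0.0705), DNMT3B (0.918 ± 0.0791) and TET1 (0.468 ± 0.134). There MBD2 and TDG, and TET3 and TET2, did not differ beyond their spread. In wt 3D the order by the deposited length was the same, with DNMT1 at 21.0 ± 5.92, DNMT3A at 2.33 ± 0.244, DNMT3B at 1.75 ± 0.264 and TET1 at 1.39 ± 0.363 CPM per kilobase. In wt 2D DNMT1 stood at 44.7 ± 0.608 CPM per kilobase, and MBD2 (19.0 ± 2.17) and UHRF1 (18.6 ± 1.5) did not differ beyond their spread. Nor did TET2 (2.51 ± 0.0226 CPM per kilobase) and DNMT3B (2.47 ± 0.481) there. DNMT3A was the last of the 9 in wt 2D, at 0.848 ± 0.104 CPM per kilobase, below TET1 at 1.84 ± 0.142. In 2D labelled KOs TET1 was last, at 0.274 ± 0.0875 CPM per kilobase, and in KOd 2D TET1 (0.572 ± 0.180) and DNMT3A (0.540 ± 0.0368) did not differ beyond their spread. In tumorsphere medium DNMT3B (1.40 ± 0.171), DNMT3A (1.33 ± 0.178) and TET2 (1.09 ± 0.264) lay close together, above TET1 (0.655 ± 0.0501). Length is the authors' column and is 1 value per gene, and it differed most from the longest GENCODE transcript for TET2 (15321 against 10166 bases) and DNMT3A (6083 against 9501). With that transcript as the length, UHRF1 stood above MBD2 in wt 2D, at 22.4 against 20.6 CPM per kilobase, and above TDG in KOd 2D and in labelled KOs of both cultures. TET2 stood above TET3 in KOd 3D, wt 3D and KOd 2D, and in KOd 3D it also stood above UHRF1, at 4.08 against 4.03 CPM per kilobase. DNMT3B stood above DNMT3A in wt 3D, at 1.87 against 1.49 CPM per kilobase, and TET2 stood above DNMT3A and DNMT3B in tumorsphere medium.

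Partners of the 9 genes were described by lists of the same pathway, with the counts of genes that passed in edgeR. Of 9 tested partners of maintenance methylation, 8 fell in KOd tumorspheres, 6 in those labelled KOs and 7 in wt (median log2 fold changes -1.19, -0.50 and -1.19, against 0.07, 0.02 and 0.04 over all tested genes), where 31.2%, 32.1% and 30.4% of all genes fell. CDCA7L and CDCA7, relatives of which CDCA7 recruits the remodeler HELLS, fell, with a log2 fold change of -2.13 ± 0.14 and -2.07 ± 0.20 in wt tumorspheres. LIG1, the ligase of Okazaki fragments, fell there, with a log2 fold change of -1.19 ± 0.12. In 3D against wt, 3 of the 9 partners were higher in the libraries labelled KOs (CDCA7, LIG1 and PCNA) and 2 were lower in KOd, near the all-gene shares of 27.8% and 17.5%. HELLS, the remodeler itself, was lower in 2D labelled KOs than in wt, with a log2 fold change of -1.27 ± 0.19. In that comparison 3 of the 9 partners were lower, HELLS among them, and 1 was higher, beside 25.5% and 27.7% of all genes. Of 7 tested de novo partners, 3 fell in wt tumorspheres and 0 rose (beside 30.4% and 33.3% of all genes), and the H3K36 methyltransferase NSD2 was among the 3, at a log2 fold change of -1.50 ± 0.10. In 2D against wt, 3 were lower in KOd and 4 in the cells labelled KOs (beside 22.5% and 25.5% of all genes), among them SETD2, which trimethylates H3K36, at a log2 fold change of -0.84 ± 0.10 in labelled KOs. The H3K36 marks are known to guide DNMT3A and DNMT3B to chromatin.

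Of 10 TET partners and genes of cofactor supply, 6 rose and 4 fell in KOd tumorspheres, 4 and 3 in those labelled KOs, and 5 and 4 in wt. Of all genes 35.2% rose and 31.2% fell in KOd, 32.9% and 32.1% in labelled KOs, and 33.3% and 30.4% in wt. CXXC5, a CXXC protein that binds TET2, averaged 99.2 ± 24.2 CPM in KOd 3D and 79.1 ± 26.4 in wt 3D, against 19.4 ± 1.52 in KOd 2D and 12.0 ± 0.760 in wt 2D. It rose in tumorspheres, with a log2 fold change of 2.35 ± 0.24 in KOd and 2.72 ± 0.24 in wt. GADD45B, a stress gene tied to active demethylation, fell in all 3 genotypes, with a log2 fold change of -4.28 ± 0.11 in KOd, -2.90 ± 0.10 in labelled KOs and -3.35 ± 0.11 in wt. GADD45A, of the same family, averaged 247 ± 28.6 CPM in KOd 2D and 60.0 ± 9.90 in 2D labelled KOs, against 59.4 ± 7.17 in wt 2D. It was higher in KOd, with a log2 fold change of 2.05 ± 0.12 against wt. CXXC4, which binds TET2 and lowers its protein, averaged 2.51 ± 0.343 CPM in 3D labelled KOs, against 10.1 ± 2.64 in wt 3D, a log2 fold change of -2.00 ± 0.25. Of 11 genes of base excision repair after TDG, 8 fell and 3 rose in wt tumorspheres, where 30.4% and 33.3% of all genes did. PARP1, which senses strand breaks, fell there, with a log2 fold change of -0.92 ± 0.10, and the uracil glycosylase UNG with -0.70 ± 0.09. In tumorspheres labelled KOs 7 fell and 1 rose, and in KOd tumorspheres 6 fell and 2 rose, with 32.1% and 31.2% of all genes lower. The polymerase POLB fell in both, with a log2 fold change of -0.72 ± 0.12 in KOd and -0.91 ± 0.12 in labelled KOs. Against wt in 2D 2 of the 11 were higher and 2 lower in KOd, and 4 were higher and 1 lower in labelled KOs. All-gene shares there were 22.1% and 22.5% for KOd and 27.7% and 25.5% for labelled KOs.

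Of 13 NuRD subunits, 7 fell and 2 rose in KOd tumorspheres, 3 fell and 2 rose in those labelled KOs, and 7 fell and 2 rose in wt. The 9 called in KOd and in wt were near the shares of all genes called (66.4% and 63.7%), and the 5 in labelled KOs below theirs (65.0%). By direction, a larger share of the subunits fell in KOd and wt than the 31.2% and 30.4% of all genes. A smaller share rose than the 35.2% and 33.3% of all genes. The histone deacetylase HDAC2 fell, with a log2 fold change of -0.56 ± 0.08 in KOd, -0.35 ± 0.08 in labelled KOs and -0.64 ± 0.08 in wt tumorspheres. For the histone-binding subunit RBBP7 the log2 fold changes were -0.46 ± 0.07, -0.58 ± 0.07 and -0.61 ± 0.07 in the same order of KOd, labelled KOs and wt. Of 10 other methyl-CpG readers, 4 rose and 4 fell in KOd tumorspheres, 3 and 1 in labelled KOs, and 2 and 1 in wt, counts below the all-gene shares in labelled KOs and wt. In 2D, 5 of these 10 readers were higher and 1 lower in KOd than in wt, beside 22.1% and 22.5% of all genes. Among the higher were MBD1, MBD4 and ZBTB38, with a log2 fold change of 0.78 ± 0.10, 0.56 ± 0.07 and 0.72 ± 0.09. MBD2 itself was lower there as given above. Of 6 proteins that bind CpG-rich promoters, 5 were lower in 2D labelled KOs than in wt and 3 in KOd, beside 25.5% and 22.5% of all genes. The demethylase KDM2A was lower in labelled KOs, with a log2 fold change of -0.92 ± 0.09, and KDM2B in KOd, with -0.99 ± 0.10.

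Genes most like each of the 9 were taken as the 3 with the highest Pearson r of mean log2 CPM over the 7 groups among 11240 tested genes. These are descriptions over 7 points. For DNMT1 they were TOP2A (0.991), NSD2 (0.991) and ARHGAP11B (0.989), of which ARHGAP11B is a near copy of another gene and uncertain, and for UHRF1 BUB1B (0.992), CDCA2 (0.989) and LMNB2 (0.985). TOP2A, the topoisomerase, and BUB1B, a spindle checkpoint kinase, belong to dividing cells. For DNMT3A they were APP (0.988), PPP1R16A (0.983) and FAM20C (0.982), and for DNMT3B TTC7A (0.953), STARD3NL (0.942) and RALB (0.940). The TET genes had STRN (0.973), LINC01085 (0.956) and NCKAP1 (0.954) for TET1, ADAM9 (0.991), UACA (0.983) and SNX15 (0.982) for TET2 and COL12A1 (0.968), PPM1B (0.951) and SMC6 (0.903) for TET3. TDG had AKT2 (0.992), ISG20L2 (0.989) and COX6B1 (0.982), and MBD2 had CCN2 (0.993), PSMC6 (0.991) and ANLN (0.990). Among the 9 genes the highest r were 0.943 for UHRF1 with MBD2, 0.908 for DNMT1 with UHRF1 and 0.802 for TET1 with TET3, and the lowest was -0.775 for TET2 with TDG.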

How the data were processed

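Poly(A) RNA of 20 samples in 7 groups was sequenced from stranded libraries, per the labels' protocols. The authors aligned reads with STAR to hg38, per the submitters' processing notes, and deposited a table of raw read counts per Entrez gene with a gene length; the counting tool, its strand setting and the annotation are not given in the sources used here. Groups were taken from the sample titles, and columns were matched to samples by name.

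Entrez IDs were matched to symbols for 27740 of 27864 genes. Counts were filtered with filterByExpr, scaled by TMM and fitted in R 4.3.3 with the quasi-likelihood test of edgeR 4.0.16 (limma 3.58.1), with 1 coefficient per group over all 20 libraries. The biological coefficient of variation was 0.143, at 13 residual degrees of freedom. In 13 contrasts p-values were adjusted by the Benjamini-Hochberg method over the 16323 genes tested, with a threshold of 0.05. A level per kilobase is CPM divided by the deposited length. Tables and figures were made with Python 3.11.15 (pandas 2.3.3, numpy 2.4.6, matplotlib 3.10.9). The fit was tested on simulated data for wt 3D against 2D, with 50 of 15686 genes changed at each size. It called 0% of the log2 changes of 0.25, 42% of 0.50, 76% of 1.00 and 100% of 2.00. Of its calls 4.39% were false. Far fewer genes were changed there than in the measured data, so these shares need not hold for them. CPM intervals cover the spread between libraries, and reads carry no molecular identifiers.

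The text names the 9 genes in every contrast, NNMT, up to 4 genes of each other list per contrast with the smallest adjusted p among those that passed, the markers, and the 3 genes most like each of the 9 among those whose log2 CPM averaged 2 or more. One gene that this rule names is not reported here. The genes and lists were chosen with earlier results of these data known. Alternatives were RLE size factors, library totals alone, no filter and a strict filter (1 CPM in 3 libraries), limma-voom, DESeq2 1.42.0, a block for the replicate letter, a fit of the compared groups alone, each library left out in turn, leaving out the 3 libraries that stand apart, leaving out 39 ribosomal RNA genes, and the longest GENCODE transcript as the length. Replicate letters were checked for pairing by the correlation of same-letter deviations from the group means: only wt 3D and KOd 3D had all 3 above 0.1 (0.210, 0.218 and 0.342). No sample was left out.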

Additional observations from a re-analysis of the deposited data

Results flagged for a closer look

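The change with tumorsphere culture differed between a pool and wt for 4 of the 9 genes, by a test of the difference itself. For labelled KOs 2 of the 9 passed, beside 36.8% of all tested genes. For KOd 2 of the 9 passed, beside 29.1%, so neither count is above the background. DNMT1 averaged 162 ± 5.91 CPM in 3D and 163 ± 33.4 in 2D in the libraries labelled KOs, against 115 ± 32.4 in wt 3D and 244 ± 3.32 in wt 2D, an interaction of 1.08 ± 0.23 (adjusted p = 0.0014) on the log2 scale. UHRF1 averaged 42.0 ± 2.92 and 62.4 ± 14.6 CPM in labelled KOs, against 30.8 ± 8.67 and 96.7 ± 7.80 in wt, an interaction of 1.08 ± 0.27 (adjusted p = 0.0050). TET2 averaged 41.4 ± 2.31 CPM in KOd 3D and 49.9 ± 1.90 in KOd 2D, against 51.5 ± 6.89 and 38.5 ± 0.346 in wt, an interaction of -0.69 ± 0.15 (adjusted p = 0.0024). TET3 averaged 32.2 ± 3.07 and 44.1 ± 1.02 CPM in KOd, against 56.7 ± 3.19 and 55.1 ± 0.953 in wt, an interaction of -0.49 ± 0.16 (adjusted p = 0.024). Without wt 3D replicate A or KOd 3D replicate B the TET3 interaction did not pass (edgeR adjusted p = 0.057 and 0.065). CPM values are means ± SD of 3 libraries, interactions are given ± SE, and the interactions of both pools share the wt libraries.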

How the results depend on the processing

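Of 117 values (9 genes in 13 comparisons), 68 passed, and 54 of these kept the call in every alternative that leaves out no single library, 53 without each library in turn and 50 in both. None of the 68 changed sign in an alternative or without a library, and of the 49 that did not pass 11 and 14 did. The 3 libraries that stand apart and the scaling limited the most values: 18 of 117 changed call or sign without those libraries and 21 under library totals alone, against 1 each under DESeq2 and RLE, and the cause was not tested. TET1, DNMT3A and DNMT3B rest on the fewest reads.

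For labelled KOs 3D against 2D, library totals alone took away UHRF1, TDG and MBD2 and added TET3, with 41.4% of all genes higher. UHRF1 and TDG were also lost there with the compared groups alone and the replicate block. For the interaction of labelled KOs, library totals alone added TET2 and MBD2, with 26.5% of all genes higher. Leaving out the 3 libraries added TET1 and TDG to that interaction. Without single libraries it was 2 to 4 for that interaction, 1 to 2 for the interaction of KOd and 3 to 5 for tumorsphere against standard medium. Over all genes, that medium comparison had 5224 calls, 7968 without the 3 libraries, 7706 with the compared groups alone, 8100 with the replicate block there as well, and 3192 or 2752 without medium replicate A or B. For labelled KOs against wt in 2D there were 8681 calls, 6053 with the compared groups alone, 5454 with the block there as well and 8608 with the block over all groups. With the longest GENCODE transcript as the length, 24 of 63 levels per kilobase and 42 of 49 ratios or shares of them, an alternative chosen after seeing the data, moved by more than the SD between replicates.

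Values that did not pass and changed sign were, for labelled KOs 3D against 2D, DNMT1 (0.21 under library totals alone, 0.011 under the strict filter, 0.0099 by limma-voom and 0.018 with the replicate block in the compared groups), DNMT3B (0.037 under library totals alone) and TET3 (-0.083 without the 3 libraries). Under library totals alone, against wt in 3D, they were DNMT3B 0.13 and TDG 0.13 in labelled KOs and TDG 0.036 in KOd. Without the 3 libraries, they were MBD2 in labelled KOs against wt in 2D (0.014), TET3 in the interaction of labelled KOs (-0.13, and -0.0080 under RLE and -0.0077 by DESeq2), and DNMT1 (-0.21) and UHRF1 (-0.035) in the interaction of KOd. With no filter DNMT3A was -0.0059 for KOd against labelled KOs in 3D.

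Without single libraries, log2 fold changes ran, for 3D against 2D, over -0.0042 to 0.074 for TET3 in wt, -0.14 to 0.15 for DNMT1 and -0.088 to 0.17 for TET3 in labelled KOs, and -0.13 to 0.0022 for DNMT3B in KOd. For labelled KOs against wt they ran over -0.25 to 0.016 for MBD2 in 2D, and -0.17 to 0.047 for DNMT3B and -0.12 to 0.016 for TDG in 3D. For KOd against labelled KOs they ran over -0.17 to 0.21 for DNMT3A in 2D, -0.016 to 0.048 for DNMT3A in 3D and -0.17 to 0.0067 for TDG in 3D. They ran over -0.046 to 0.095 for TDG in tumorsphere against standard medium, -0.13 to 0.13 for TET3 in the interaction of labelled KOs, and -0.17 to 0.19 for DNMT1 and -0.11 to 0.33 for TET1 in the interaction of KOd. The replicate block over all groups changed 1 of the 117 calls, UHRF1 in tumorsphere against standard medium (-0.63, edgeR adjusted p = 0.052). Where the letters pair wt 3D and KOd 3D, the block in those groups changed no call but that of MBD2, given above.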

Other observations

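Of 20 germline genes whose promoters are methylated in most somatic tissues, 7 had enough reads to be tested. In 3D against wt, 2 were higher and 3 lower in KOd (median log2 fold change -1.82), and 4 higher and 2 lower in labelled KOs (median 1.23). In 2D against wt, 0 were higher and 2 lower in KOd (median -1.74), and 4 higher and 1 lower in labelled KOs (median 1.08). Over all tested genes the medians were 0.0026, 0.02, 0.01 and 0.06 in that order, and 16.5%, 27.8%, 22.1% and 27.7% were higher and 17.5%, 28.5%, 22.5% and 25.5% lower. MAGEA3, a cancer testis gene known to be silenced by promoter methylation, had nearly all of the list's reads. It averaged 102 ± 8.51 CPM in KOd 3D, 126 ± 1.64 in 3D labelled KOs and 53.8 ± 4.69 in wt 3D, and 119 ± 1.67 in KOd 2D, 229 ± 62.4 in 2D labelled KOs, 116 ± 0.0947 in wt in tumorsphere medium and 108 ± 7.17 in wt 2D. MAGEA6 and other close copies share sequence with it, so its reads are uncertain, and its levels do not stand for the list. The methylation of any promoter was not measured in these files.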
